A study of Homo sapiens with 18 samples.

Results

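The glycolysis genes HK2, SLC2A3, PFKFB4, PGAM1, TPI1, LDHA and PDK3 were followed by name through 3 deposited tables of RNA sequencing in Cal51, a human breast cancer cell line. They are 7 of the 3647 genes that appear in at least 1 of the tables. Each table sets cells treated for 8 h with fenofibrate plus ezetimibe (here the combination), with fenofibrate alone or with ezetimibe alone against the same DMSO cells, with 3 libraries per group. Fenofibrate is a blood lipid drug and agonist of the transcription factor PPARα, ezetimibe blocks NPC1L1, a protein of sterol uptake, and DMSO is the solvent. The labels give no dose, and name no separate cultures for the numbered replicates, so the spread between them may be technical. The labels name no genetic change for these 12 libraries. A further 6 libraries of the series, PKM2 KO and Control, were not analysed here.

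The genes were chosen by their measured values against DMSO, as genes of 1 pathway listed with changes in opposite directions, so their treated and DMSO values are a description and carry no test. The authors listed a gene only when its absolute log2 fold change was above 1 and its adjusted p under 0.05. A gene that a table lacks can have changed by less than that, have been too low to test or not have changed. Values are normalised read counts, that is, reads divided by a factor for each library. The combination table held 2550718 to 3265200 reads per library in its 3508 genes. The epithelial markers EPCAM, KRT8, KRT18, KRT19 and CDH1 are in no table, so the identity of the cells could not be checked against them. Of 25 markers of epithelial, breast, mesenchymal, immune, endothelial and fibroblast cells, 4 were listed with the combination (FOXA1 and GATA3 higher, ERBB2 and COL1A1 lower), 0 with fenofibrate and 2 with ezetimibe (GATA3 higher, CDH5 lower). In bulk RNA, fewer cells of a type and less RNA per cell cannot be told apart.

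Glycolysis splits glucose into pyruvate in the cytosol. Glucose enters through carriers of the SLC2A family, hexokinases trap it as glucose 6-phosphate, and phosphofructokinase commits it to the pathway under the control of fructose 2,6-bisphosphate. Beyond that step the pathway runs through triosephosphate isomerase, phosphoglycerate mutase and pyruvate kinase. Then lactate dehydrogenase makes lactate, or pyruvate dehydrogenase feeds the mitochondria unless a pyruvate dehydrogenase kinase turns it off. Many tumour cells use this route heavily even in the presence of oxygen, and several of its genes are textbook targets of hypoxia-inducible factors and of MYC.

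Among these genes, the carrier and the hexokinase at the entry of the pathway were higher with the combination, and the later enzymes and the kinase were lower. Of the 7 genes 6 were listed with the combination, 2 of them higher (HK2 and SLC2A3) and 4 lower (PGAM1, TPI1, LDHA and PDK3). PFKFB4 was listed as higher with fenofibrate and with ezetimibe and was not in the combination table. The other 6 genes were in neither single-drug table. Of all 3508 genes in the combination table limma called 58.7% higher and 41.3% lower. In the single-drug tables it called 91.2% of 102 genes higher with fenofibrate and 77.5% of 472 genes higher with ezetimibe. In either direction limma called 100% of the genes of the combination and fenofibrate tables and 99.8% of those of the ezetimibe table, where 22.2% were lower; with fenofibrate 8.82% were lower. Treated and DMSO libraries did not overlap in any of the 7 genes, nor in 99.0% of all genes of the combination table, 98.3% of the ezetimibe table and 98.0% of the fenofibrate table. These shares, like the listing itself, come from the contrasts that chose the genes, and nothing is read from them.

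Start regions of the genes were searched for the letters bound by the factors named above. Hypoxia-inducible factors bind the cores ACGTG and GCGTG, and MYC and other helix-loop-helix factors bind CACGTG, which contains ACGTG on both strands. RefSeq start sites (GRCh38.p14) were at hand for 6 of the 7 genes, in 9 windows of 250 bases before a start, HK2, TPI1 and LDHA having 2 windows each. On either strand ACGTG was found in 5 of the 9 windows, in HK2, LDHA, TPI1 and PDK3, against 18.5% of 35116 windows of all genes. GCGTG was found in 6 of 9 windows, against 32.2% of all windows, and CACGTG in 2 of 9, against 6.34%. The windows of the genes had 54.8% to 76.8% G and C, against a median of 58.0% in all windows, and the shares were not matched for it. A match is a string of letters and says nothing of binding. Of the stretches that lie outside annotated exons and hold a match, 1 per gene is shown, in 2 genes that were higher and in 3 that were lower, with ACGTG and GCGTG of either strand in capitals.
HK2 (second start, within the gene, plus strand, chr2:74834920-74835169): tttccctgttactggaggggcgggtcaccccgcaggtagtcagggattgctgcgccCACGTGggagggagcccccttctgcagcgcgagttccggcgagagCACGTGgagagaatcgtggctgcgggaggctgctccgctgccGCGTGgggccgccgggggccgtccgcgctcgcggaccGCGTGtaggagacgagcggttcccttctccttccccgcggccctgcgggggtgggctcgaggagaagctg
LDHA (first start, plus strand, chr11:18394313-18394387): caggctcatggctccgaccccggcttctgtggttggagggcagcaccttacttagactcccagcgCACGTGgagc
TPI1 (second start, within the gene, plus strand, chr12:6867855-6868099): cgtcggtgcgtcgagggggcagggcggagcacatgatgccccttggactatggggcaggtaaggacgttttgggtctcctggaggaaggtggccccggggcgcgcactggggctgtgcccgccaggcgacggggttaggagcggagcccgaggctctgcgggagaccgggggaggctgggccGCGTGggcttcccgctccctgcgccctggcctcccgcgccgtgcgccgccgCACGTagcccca
PFKFB4 (within the gene, minus strand, chr3:48556924-48556982): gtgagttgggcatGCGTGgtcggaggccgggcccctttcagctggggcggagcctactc
PDK3 (plus strand, chrX:24465036-24465220): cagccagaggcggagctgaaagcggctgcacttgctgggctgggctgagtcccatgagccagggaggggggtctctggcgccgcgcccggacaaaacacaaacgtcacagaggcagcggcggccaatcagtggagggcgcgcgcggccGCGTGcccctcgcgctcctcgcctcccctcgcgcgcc

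The HK2 stretch holds CACGTG in 2 places and GCGTG in 2 more. The LDHA stretch holds CACGTG once, and 5 matches to ACGTG fall in its whole window when both strands are counted. The window of the second LDHA start, not shown, holds GCGTG once. The TPI1 stretch holds ACGTG and GCGTG once each, and the PFKFB4 and PDK3 stretches hold GCGTG once. The window of PGAM1 and the first of TPI1 had neither core.

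**Figure D1:**
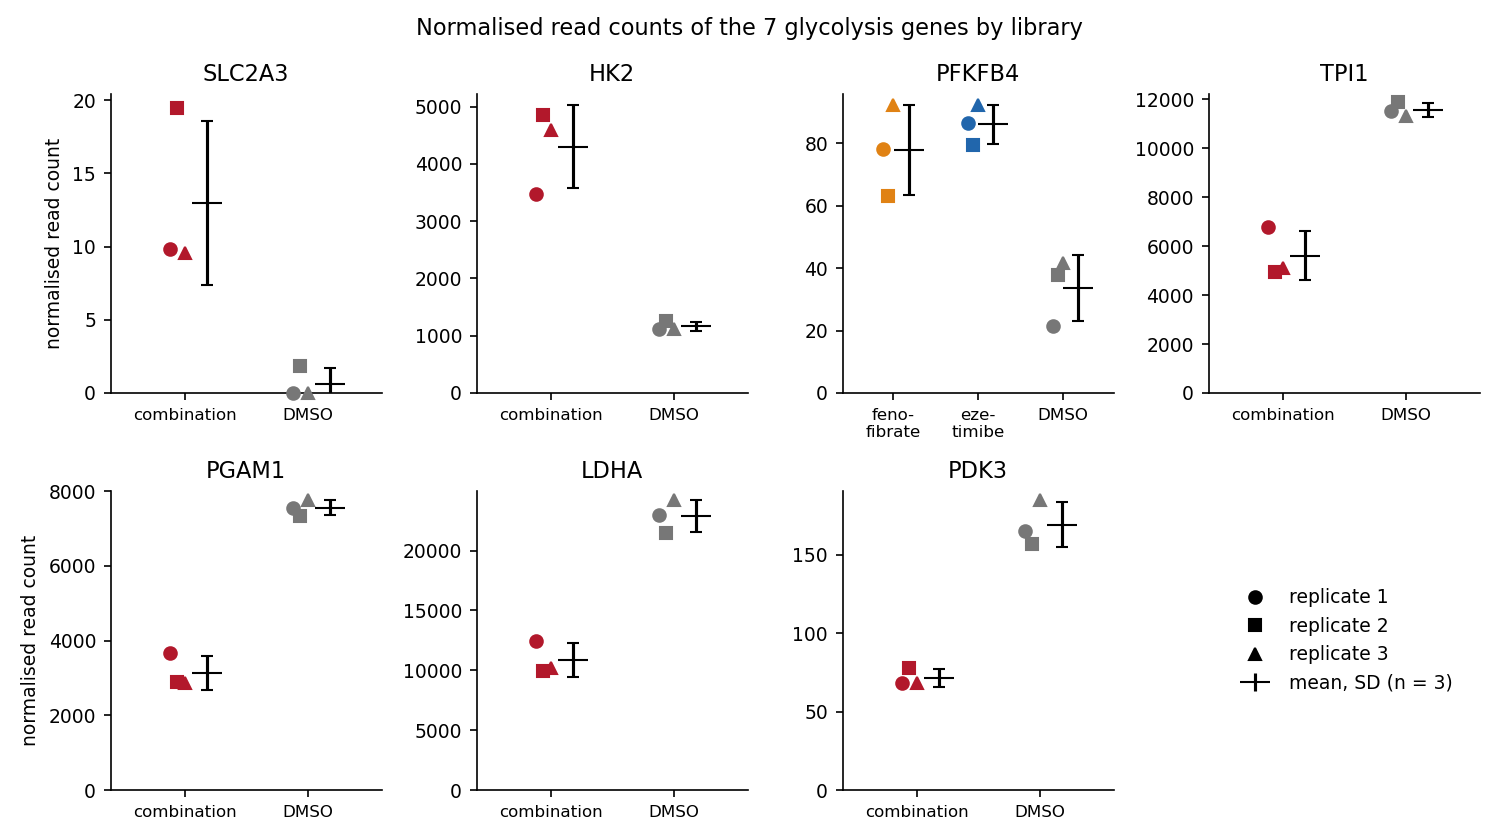
Normalised read counts (y axis, linear from 0) of each gene in every library, with treated groups left of DMSO, symbols for the replicate numbers and bars for the mean and SD (n = 3). PFKFB4 is shown on the scale of the ezetimibe table, the others on that of the combination table. No treated library overlaps a DMSO library in any of the 7 panels.

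The glucose carrier SLC2A3 (GLUT3, a high-affinity transporter best known from neurons) was the gene closest to the detection limit. SLC2A3 (ENSG00000059804, hg38 chromosome 12, 7919230 to 7936275, minus strand) had 9.86, 19.5 and 9.58 normalised read counts in the combination libraries, against 0, 1.84 and 0 in the DMSO libraries. These values stand for 9, 21 and 10 reads in the combination libraries and for 0, 2 and 0 reads in the DMSO libraries. It was detected in every combination library and in 1 DMSO library. With 40 reads in the combination and 2 in DMSO the ratio was 20.1, with an exact conditional binomial 95% interval from 5.21 to 172. The interval covers counting error only. It does not allow for the choice of the gene on this contrast and is not a test. Its limma log2 fold change of 3.23 ± 0.53 (SE) depended on the added count of 1 and became 5.52 with 0.1 and 1.65 with 5. The transcripts of SLC2A3 and its neighbour SLC2A14, which is in no table, are 96.9% identical over 2009 aligned bases, so the authors' counting could have split or dropped reads between them.

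HK2 was the abundant one of the genes that were higher with the combination. Hexokinase 2, the inducible hexokinase of muscle and of many tumours, catalyses the first step of glycolysis. HK2 (ENSG00000159399, chromosome 2, 74833981 to 74893359, plus strand) had 3477, 4850 and 4586 normalised read counts in the combination libraries, against 1118, 1259 and 1118 in the DMSO libraries. The groups were far apart, with combination replicate 1 the lowest of its group. HK2 averaged 4304 ± 729 in combination cells and 1165 ± 81.2 in DMSO cells (SD, n = 3 each), a 3.69-fold higher level with a log2 fold change of 1.87 ± 0.13 (SE). By absolute log2 fold change it ranked 1358 of the 3508 genes of the table. The lincRNA AC019069.1 overlaps its exons on the opposite strand and is in no table. No source used here says whether reads were counted by strand, which also bears on TPI1, whose exons overlap those of SPSB2 on the opposite strand (in no table).

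PFKFB4 was the only one of the genes listed with either drug alone. It encodes a bifunctional enzyme that makes and breaks fructose 2,6-bisphosphate, the activator of phosphofructokinase. PFKFB4 (ENSG00000114268, chromosome 3, 48517684 to 48562015, minus strand) had 76.1, 61.4 and 89.6 normalised read counts in the fenofibrate libraries, against 21.0, 36.6 and 40.7 in the DMSO libraries of that table. In the ezetimibe table it had 86.6, 79.4 and 92.2 in the ezetimibe libraries, against 21.6, 37.8 and 41.7 in the same DMSO libraries on that table's scale. All treated libraries were above all DMSO libraries, and DMSO replicate 1 was the lowest. The means were 75.7 ± 14.1 in fenofibrate cells and 32.7 ± 10.4 in DMSO cells (2.31-fold, log2 1.22 ± 0.31), and 86.1 ± 6.37 in ezetimibe cells and 33.7 ± 10.7 in DMSO cells (2.56-fold, log2 1.38 ± 0.25). Without DMSO replicate 1 the log2 values were 0.94 with fenofibrate and 1.10 with ezetimibe. Both comparisons share their DMSO libraries.

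The contrast between the 2 drugs was not the one that listed PFKFB4, and it was tested. Only genes listed with both drugs against the same DMSO libraries enter it, which favours similar values. On 1 scale PFKFB4 averaged 86.1 ± 6.37 in ezetimibe cells and 77.8 ± 14.5 in fenofibrate cells, and the 2 groups overlapped. The log2 difference of ezetimibe over fenofibrate was 0.16, with a 95% interval from -0.42 to 0.73 (limma, 2-sided, adjusted p = 0.622 over the 60 genes in both tables, of which 58.3% were called). The interval leaves room for a difference of either sign. UCN2, a peptide hormone gene whose exons overlap those of PFKFB4 on the same strand, was listed as lower with the combination at very low values (3.07 ± 2.28 in combination cells and 17.5 ± 5.56 in DMSO cells). Reads in the shared stretch cannot be assigned to either gene with certainty.

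Of 56 other protein-coding genes listed with each single drug (mean value 50 or more), the library values of EPAS1 were most like those of PFKFB4, with Pearson's r of 0.98 over 9 libraries on the log2 scale. EPAS1 encodes the hypoxia-inducible factor HIF2α. APOL6, an apolipoprotein L family member, followed with 0.95 and PIP5KL1, related to phosphatidylinositol phosphate kinases, with 0.93. These correlations are a description, since all the genes were listed for a change against the same DMSO libraries.

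Of the enzymes that act after phosphofructokinase, 3 abundant ones were lower with the combination, PGAM1 by somewhat more than TPI1 and LDHA. TPI1 (ENSG00000111669, chromosome 12, 6867119 to 6870948, plus strand) encodes triosephosphate isomerase, which interconverts the triose phosphates. TPI1 had 6769, 4933 and 5125 normalised read counts in the combination libraries, against 11533, 11871 and 11316 in the DMSO libraries. It averaged 5609 ± 1009 in combination cells and 11573 ± 279 in DMSO cells (log2 -1.06 ± 0.13). The highest combination library was well below the lowest DMSO library.

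PGAM1, phosphoglycerate mutase 1 (ENSG00000171314, chromosome 10, 97426160 to 97433441, plus strand), moves the phosphate of 3-phosphoglycerate to the next carbon. PGAM1 had 3660, 2881 and 2862 normalised read counts in the combination libraries, against 7558, 7346 and 7756 in the DMSO libraries. It averaged 3134 ± 455 in combination cells and 7553 ± 205 in DMSO cells (log2 -1.28 ± 0.11), the lowest ratio of the 3 enzymes at 0.415.

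LDHA (ENSG00000134333, chromosome 11, 18394388 to 18408425, plus strand), the lactate dehydrogenase subunit that favours lactate formation, had the highest read count of the genes. LDHA had 12469, 9943 and 10161 normalised read counts in the combination libraries, against 22979, 21487 and 24214 in the DMSO libraries. It averaged 10858 ± 1399 in combination cells and 22894 ± 1366 in DMSO cells (log2 -1.08 ± 0.12). TPI1 and LDHA stood close to the listing threshold, with log2 fold changes of -1.05 and -1.08 in the authors' deposited table and ranks of 3306 and 3182 among 3508. Genes just outside the threshold are not in the tables used here.

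PDK3 belongs to the next step. Pyruvate dehydrogenase kinase 3 phosphorylates and inactivates pyruvate dehydrogenase. PDK3 (ENSG00000067992, chromosome X, 24465221 to 24541862, plus strand) had 68.0, 77.8 and 68.0 normalised read counts in the combination libraries, against 165, 157 and 185 in the DMSO libraries. It averaged 71.3 ± 5.69 in combination cells and 169 ± 14.2 in DMSO cells (log2 -1.23 ± 0.17), at a far lower level than the enzymes. AC004656.1, a sense transcript annotated downstream of PDK3 as overlapping it (chromosome X, 24545516 to 24550466), was lower as well, with 61.3 ± 5.01 in combination cells and 176 ± 15.2 in DMSO cells (log2 -1.51 ± 0.18). No exons of the 2 genes overlap in GENCODE release 29.

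Processed pseudogenes of PGAM1 and LDHA were lower with the combination as well. AC078819.1 and AC012085.1, described in the files as PGAM1 pseudogenes and picked here after their values were seen, are 99.7% and 99.9% identical to a PGAM1 transcript over 765 bases. AC078819.1 averaged 33.4 ± 9.04 in combination cells and 97.0 ± 26.8 in DMSO cells (log2 -1.51 ± 0.29). AC012085.1 averaged 43.5 ± 5.33 in combination cells and 99.9 ± 19.8 in DMSO cells (log2 -1.17 ± 0.23). LDHAP4, 95.7% identical to an LDHA transcript over 998 bases, averaged 17.2 ± 5.27 in combination cells and 41.5 ± 11.8 in DMSO cells (log2 -1.23 ± 0.33). In DMSO cells AC078819.1 held 1.28% and AC012085.1 1.32% of the value of PGAM1, and LDHAP4 held 0.181% of that of LDHA. How the authors' counting shared reads between a gene and its copies is not stated. Of the other pseudogenes named after the genes in GENCODE release 29, the 13 of PGAM1, 4 of TPI1, 3 of SLC2A3, 1 of HK2 and the remaining ones of LDHA were in no table.

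**Figure D2:**
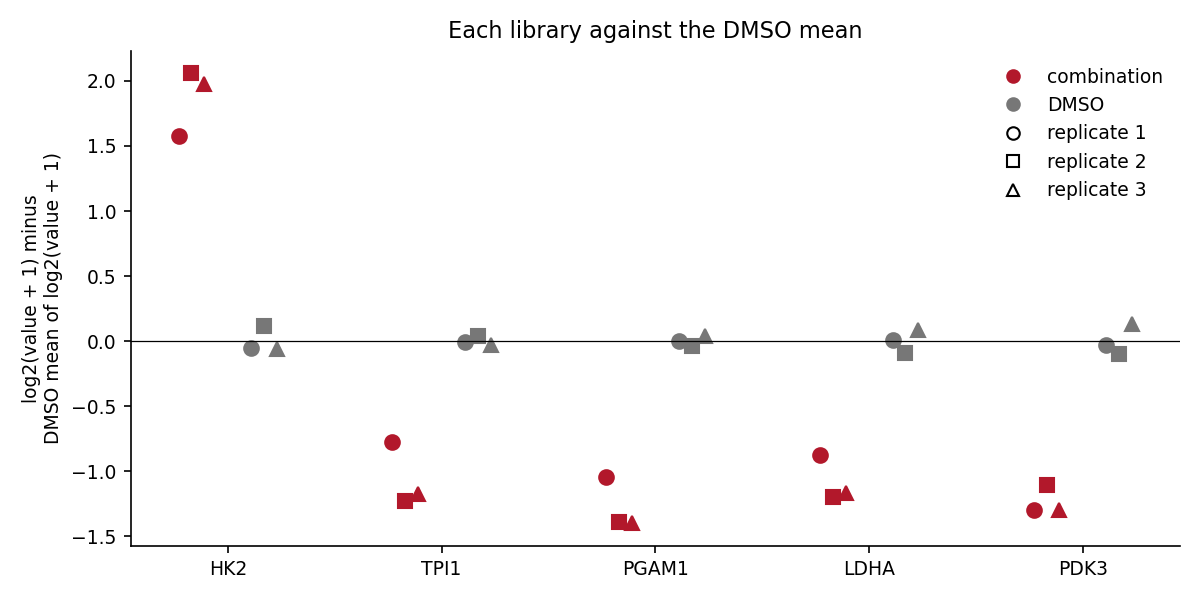
Each library's log2(value + 1) minus the mean of the DMSO libraries (y axis) for the 5 better-counted genes of the combination table, with combination libraries left of DMSO libraries and symbols for replicate numbers. Combination replicate 1 lies nearest to DMSO for HK2, TPI1, PGAM1 and LDHA but not for PDK3.

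A single library set much of the spread. For HK2, TPI1, PGAM1 and LDHA combination replicate 1 was the nearest to DMSO, while for PDK3 it was replicate 2. Over the whole table replicate 1 was the lowest of the 3 combination libraries in 33.4% of the 2058 higher genes and the highest in 41.8% of the 1450 lower genes. Without it the log2 fold changes were larger for these 4 genes, at 2.02 for HK2, -1.20 for TPI1, -1.39 for PGAM1 and -1.19 for LDHA. The value of PDK3 without it was -1.20.

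Ratios between genes within a library do not depend on the library factors. Their size depends on the exonic lengths used, which were the same for combination and DMSO libraries. Per kilobase of exon the level of HK2 was 22.9%, 43.8% and 39.8% of that of TPI1 in the combination libraries, against 4.32%, 4.72% and 4.40% in the DMSO libraries. Relative to LDHA it was 41.6% ± 11.4 in combination cells and 5.24% ± 0.673 in DMSO cells (SD, n = 3 each), and relative to PGAM1 59.8% ± 17.0 in combination cells and 6.54% ± 0.624 in DMSO cells. The groups were far apart in all 3 ratios, again with combination replicate 1 the lowest of its group. HK2 was chosen as higher and the other 3 enzymes as lower in these same libraries. The direction of these 3 ratios follows from that choice, so they are a description. LDHA stood at 84.6% ± 4.01 of TPI1 in combination cells and 86.1% ± 7.18 in DMSO cells, with overlapping libraries. PGAM1 was lower relative to LDHA, at 69.7% ± 1.46 in combination cells and 79.9% ± 2.63 in DMSO cells, with no overlap.

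**Figure D3:**
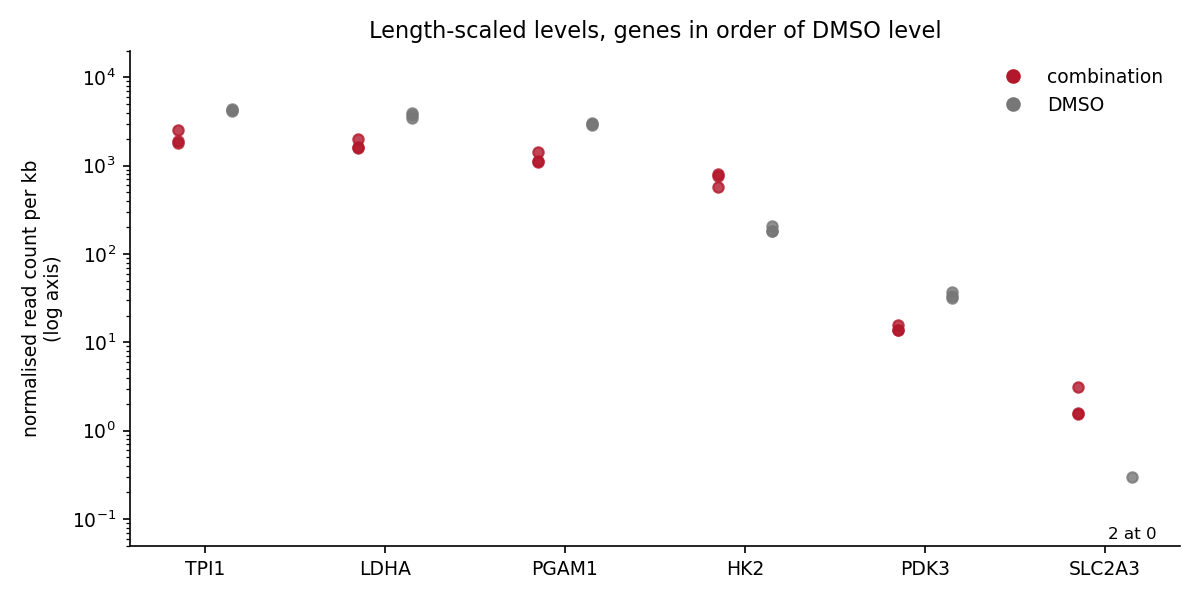
Normalised read count per kilobase of exon (y axis, log scale) of 6 genes in every combination library (left) and DMSO library (right of each pair), in order of the DMSO level, with the 2 DMSO libraries of SLC2A3 at 0 written as text. The 3 most abundant genes are lower with the combination, and HK2, the next in order, is higher.

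The genes spanned a wide range of levels per length. Lengths count all annotated exons of a gene, 6210 bases for LDHA, while an LDHA transcript aligned above has 1922 bases. The order of TPI1, LDHA and PGAM1 can therefore depend on the lengths used. In DMSO cells TPI1 had 4286 ± 103 normalised read counts per kilobase, LDHA 3687 ± 220, PGAM1 2941 ± 79.7, HK2 192 ± 13.4, PDK3 34.1 ± 2.87 and SLC2A3 0.0994 ± 0.172. PFKFB4 had 5.51 ± 1.75 in DMSO cells on the scale of the ezetimibe table and lies between PDK3 and SLC2A3. None of these neighbours in the order overlapped between libraries in DMSO cells. In combination cells TPI1 had 2077 ± 374, LDHA 1748 ± 225, PGAM1 1221 ± 177, HK2 710 ± 120, PDK3 14.4 ± 1.15 and SLC2A3 2.11 ± 0.913. The order was the same, but TPI1 and LDHA overlapped, and HK2 stayed below PGAM1, at 573 to 800 against 1115 to 1425 per kilobase.

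**Figure D4:**
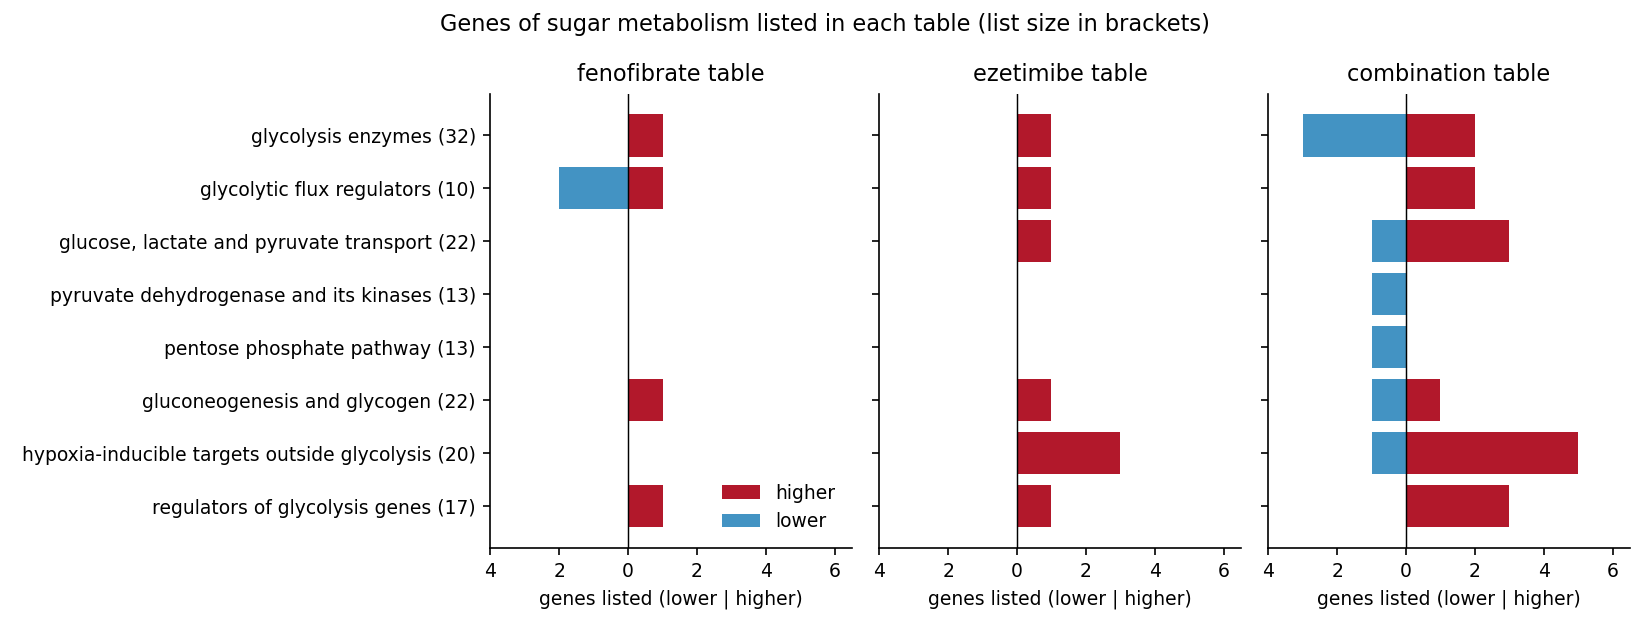
Number of genes (x axis) of 8 lists of sugar metabolism, hypoxia targets and regulators that each table lists as higher (right of 0) or lower (left of 0), with the size of the list in brackets. The combination table has 3 lower and 2 higher glycolysis enzymes, and 5 of its 6 listed hypoxia targets are higher.

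The rest of the pathway was mostly absent from the tables. Of 32 glycolysis enzymes 5 were listed with the combination, HK2 and HKDC1 higher and TPI1, PGAM1 and LDHA lower. Of these 5, all but HKDC1 are among the 7 genes chosen on these changes. The other 27, among them GAPDH, PGK1, ENO1, ALDOA and PKM, were in no table. HKDC1 (hexokinase domain containing 1) is a further hexokinase, and with each drug alone it was the only enzyme listed. HKDC1 averaged 3275 ± 131 in combination cells, 959 ± 14.0 in ezetimibe cells and 884 ± 4.98 in fenofibrate cells, against 399 ± 17.0 in DMSO cells, all on the scale of the combination table. Combination cells had more HKDC1 than ezetimibe cells (log2 difference 1.77 ± 0.09, limma adjusted p = 6.83e-09, 53.2% of 359 shared genes called higher). They also had more than the sum of the single-drug log2 changes gives (0.62 ± 0.09, limma adjusted p = 9.15e-05, 16.3% of 49 genes called higher). Every combination library was above every single-drug library. The 49 genes were listed with each drug and with the combination on the same values, so this comparison is not free of that choice.

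Of 10 flux regulators 2 were called higher with the combination, PFKFB2, a relative of PFKFB4 (816 ± 148 in combination cells and 300 ± 16.5 in DMSO cells), and ARRDC4, an arrestin that limits glucose uptake. Fenofibrate alone had PFKFB4 higher and ARRDC4 and TXNIP, another arrestin of this kind, lower. TXNIP averaged 80.9 ± 13.1 in fenofibrate cells and 425 ± 10.3 in DMSO cells. ARRDC4 averaged 592 ± 109 in combination cells and 295 ± 46.9 in DMSO cells, and 85.4 ± 3.41 in fenofibrate cells and 288 ± 46.5 in DMSO cells. Its difference between combination and fenofibrate was 2.73 ± 0.17 on the log2 scale (limma adjusted p = 1.22e-07, 69.2% of 65 shared genes called higher). ARRDC4 entered this contrast as a gene listed higher with the combination and lower with fenofibrate, against the same DMSO libraries. The authors' log2 fold changes were 1.01 with the combination and -1.75 with fenofibrate. That listing fixed the sign of the difference, so the difference is a description and nothing is read from its p-value. Of 22 transporters of glucose, lactate and pyruvate 4 were listed with the combination, of which SLC2A3 and SLC16A8 rest on few reads. SLC2A11 (270 ± 21.0 in combination cells and 99.3 ± 8.36 in DMSO cells), SLC2A3 and SLC16A8, a lactate carrier (15.4 ± 1.59 in combination cells and 3.81 ± 3.06 in DMSO cells), were higher, and the glucose carrier SLC2A12 (139 ± 36.8 in combination cells and 435 ± 17.8 in DMSO cells) was lower. Ezetimibe alone had SLC2A11 higher (210.3 ± 13.1 in ezetimibe cells and 99.6 ± 8.49 in DMSO cells), and no gene of this list was in the fenofibrate table.

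PDK3 was the only one of 13 genes of pyruvate dehydrogenase and its kinases and phosphatases in any table. Of 13 pentose phosphate genes PRPS2, which makes the ribose precursor of nucleotides, was called lower with the combination (453 ± 44.9 in combination cells and 1226 ± 120 in DMSO cells). Of 22 genes of gluconeogenesis and glycogen PCK2, the mitochondrial phosphoenolpyruvate carboxykinase, was called higher in all 3 tables, and GYG2, a glycogen primer, lower with the combination (564 ± 44.3 in combination cells and 1801 ± 68.0 in DMSO cells). PCK2 averaged 3868 ± 569 in combination cells, 3079 ± 61.2 in ezetimibe cells and 2521 ± 138 in fenofibrate cells, against 983 ± 131 in DMSO cells on that same scale. Its combination level was below the sum of the single-drug log2 changes (-1.05 ± 0.16, limma adjusted p = 0.000135, 55.1% of 49 genes called lower). A sum of log2 changes multiplies the folds, and the 49 genes were listed on these same values.

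Most hypoxia-inducible genes outside glycolysis were in no table. Of 20 such genes 5 were called higher with the combination (VEGFA, LOX, DDIT4, NDRG1 and ANKRD37) and 1 lower (CA12), where 58.7% of all genes of the table were higher. With ezetimibe 3 were called higher (VEGFA, LOX and DDIT4) and 0 lower, where 77.5% of all genes were higher. The median log2 fold change of the 3 with ezetimibe was 1.35 in the authors' deposited table, against 1.33 over all its higher genes. None was in the fenofibrate table. On the scale of the combination table VEGFA, the vascular growth factor, averaged 3559 ± 321 in combination cells, 2153 ± 42.5 in ezetimibe cells and 956 ± 112 in DMSO cells, and LOX, a collagen cross-linking enzyme, 1959 ± 406 in combination cells, 1114 ± 27.0 in ezetimibe cells and 438 ± 75.8 in DMSO cells. DDIT4, an inhibitor of mTORC1, averaged 2164 ± 128 in combination cells, 1508 ± 26.4 in ezetimibe cells and 476 ± 97.0 in DMSO cells, and CA12, a carbonic anhydrase, was lower (784 ± 19.7 in combination cells and 2241 ± 97.5 in DMSO cells). Of 17 regulators EPAS1, MYC and the Krüppel-like factor KLF4 were called higher with the combination and none lower, where 58.7% of all genes of the table were higher. EPAS1 averaged 930 ± 128 in combination cells, 201 ± 20.4 in ezetimibe cells and 126 ± 32.0 in fenofibrate cells, against 35.7 ± 18.4 in DMSO cells on that same scale. MYC averaged 7419 ± 85.9 in combination cells and 1202 ± 62.4 in DMSO cells, and KLF4 186 ± 11.4 in combination cells and 26.5 ± 10.5 in DMSO cells. HIF1A and PPARA were in no table. A part of these regulators in the values of the 7 genes was not tested.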

How the data were processed

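RNA was sequenced from 18 libraries in 6 groups of 3, and 12 libraries in 4 groups were used. Per the submitters' processing notes, which give no roles, the tools were featureCounts 1.5.0-p3, HISAT2 2.0.5 and fastp and the build was hg38. For the authors' own comparison no tool is given in the sources used here. Per the file headers, each deposited table holds the normalised signal of 6 libraries, a log2 fold change and a p-value per gene, all by the authors. In the combination table the deposited signal divided to whole reads within 0.02 for 100% of values, with library factors from 0.912 to 1.09.

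The members and gene lists were chosen with earlier results of these data known. Each table was fitted with limma 3.58.1 (trend, R 4.3.3) on log2(value + 1), which understates changes of low genes, with Benjamini-Hochberg adjustment over its genes and a threshold of 0.05. The fit was also run on simulated data in which most genes were unchanged. That setting differs from tables of called genes, so nothing is read from it here. Tables were joined through their shared DMSO libraries for contrasts between treatments over the genes in both. As the tables hold only called genes, these adjusted p-values describe listed genes. EdgeR 4.0.16 was run on the recovered reads of the combination table alone. An exact permutation test of 3 libraries against 3 reaches a 2-sided p of 0.1 at best, so none was run.

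All 7 members were named, every listed gene of the 8 lists (at most 4 with values per list and table), listed pseudogenes and near-identical paralogs, and the 3 genes most like PFKFB4. UCN2, AC004656.1 and the PGAM1 pseudogenes were chosen after their values were seen. Gene positions and exonic lengths equal those of GENCODE release 29 for the 7 members.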

Additional observations from a re-analysis of the deposited data

How the results depend on the processing

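All 7 counts of called genes stayed within 1.5 times their reported value under every alternative run: other pseudocounts (0.1 and 5), a mean value of at least 10, limma without trend, a replicate block, leaving out each library in turn and, for contrasts between treatments, each table on its own scale. The numbers of the replicates do not pair the libraries (correlations of deviations from -0.33 to 0.16), and with the replicate block limma called 3508 genes with the combination, 472 with ezetimibe and 102 with fenofibrate. With edgeR on the recovered reads it was 3508 genes, and the log2 fold change of SLC2A3 was 4.09. Counts against DMSO were nearly fixed in advance, since each table holds only genes the authors had called on that contrast. Their stability says little. With reads not divided by library factors, an alternative chosen after seeing the data, HK2 had 1.86 and TPI1 -1.07. Leaving out 1 library at a time gave 1.78 to 2.02 for HK2, -1.20 to -0.97 for TPI1 and 27 to 39 called genes between ezetimibe and fenofibrate. The difference of PFKFB4 between the drugs ran from 0.02 to 0.29 over 15 alternatives, never called (lowest adjusted p = 0.449). Of the single-gene values under all alternatives 356 stayed the same. Between treatments this means the same direction and side of the threshold, and against DMSO the same direction and a shift below the residual spread. Another 16 lost a call (PCK2 and SLC2A11 between treatments) and 3, all SLC2A3, moved by more than the spread. For EPAS1 2 values gained a call and 1 changed sign. Its log2 difference between ezetimibe and fenofibrate was 0.70 ± 0.38 and was not called (limma adjusted p = 0.136). Of 15 alternatives only 1, without DMSO replicate 1, gave a call (limma adjusted p = 0.0135), and the difference stayed at 0.70. EPAS1 in the combination, compared with the summed single-drug changes, was 0.27 ± 0.51; it was -0.032 without DMSO replicate 2 and 0.80 (then called) without DMSO replicate 1, and the cause was not tested. The edgeR test planned for the other comparisons was not run, since reads were not recovered from the single-drug tables by themselves. The low counts of SLC2A3 limit what its fold can show.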
